A study of Arabidopsis thaliana with 18 samples.

Results

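The genes described here are 6 members of a plant transporter family, the UMAMIT proteins: UMAMIT35 (AT1G60050), UMAMIT17 (AT4G08300), UMAMIT28 (AT1G01070), UMAMIT14 (AT2G39510), UMAMIT18 (AT1G44800, also called SIAR1) and WAT1 (AT1G75500, also called UMAMIT5). They were taken as a given list out of 33602 loci counted in each library. Comparisons of the 9 groups and the interaction of brassinolide and auxin were named with the list. The genes were chosen by measured values of these same libraries, and beyond the naming of these comparisons it is not recorded which value chose which gene. For these 6 genes, comparisons among the treated Col-0 groups are therefore given as a description. Where calls of the 6 are counted there, they are no test of these genes. In the mutants the genes were tested with all others. Those results too were known in part when the list was made, so adjusted p-values and calls of the 6 there are no independent test. The annotation holds 52 loci of the wider family, 47 with a UMAMIT name and 5 described only as nodulin-like relatives, and they serve as the comparison. The 52 include the 6 genes, so counts without the 6 are given too.

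UMAMIT proteins sit in the plasma membrane or the membrane of the vacuole, and several are known to let amino acids leave the cell. In that role they help unload amino acids from the phloem, the tissue that feeds the growing root tip, and pass them to the developing seed. UMAMIT14 and UMAMIT18 export amino acids in root and seed tissues, and UMAMIT28 takes part in the transfer of amino acids to the seed. WAT1, whose name stands for walls are thin, moves the hormone auxin out of the vacuole and is needed for thick secondary walls in the stem.

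The study asked how brassinosteroids and auxin act together and against each other in the root. RNA came from the tip section of the primary root of 7-day-old Arabidopsis thaliana seedlings, all in the Col-0 background and grown upright in continuous light, with 2 libraries for each of 9 groups. Col-0 wild type was given a mock solution, 100 nM BL (brassinolide, a potent brassinosteroid hormone), 5 µM IAA (the auxin indole-3-acetic acid), or BL and IAA at these doses together, each for 4 h. The mutant bri1-116 of the brassinosteroid receptor BRI1 and the double mutant bri1-116;bzr1-1D, which adds a dominant allele of the brassinosteroid-controlled transcription factor BZR1, were untreated and read at 101 bp like the 4 Col-0 groups. A second set, read at 36 bp, held untreated Col-0 wild type, the untreated mutant dwf4, which lacks a working enzyme of brassinosteroid synthesis, and the same mutant given 100 nM BL for 4 h. No allele of dwf4 is named in the labels. The bri1-116 and double mutant roots were untreated while their Col-0 control was mock-treated, and the BL-treated dwf4 roots had no mock control, so genotype or BL cannot be told apart from the handling in those comparisons.

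Counts assigned to genes ran from 11225390 to 36431707 per library, and Pearson's r between the libraries of a group, across genes, from 0.990 in dwf4 to 0.997 in mock- and in IAA-treated Col-0. No count in a library allows up to 0.0823 to 0.267 CPM (counts scaled to 1e6 per library), the level of 3 counts, which covers counting error only. Nothing in the labels says that libraries of one group are from separate cultures, so p-values measure only the spread between these samples, which may be technical. The mutated genes were transcribed in their mutants: BRI1 stood at 139 ± 4.66 CPM (SD, n = 2) in bri1-116 and 122 ± 10.7 in mock-treated Col-0, and DWF4 at 48.1 ± 0.626 in dwf4 and 50.8 ± 1.51 in wild type. Transcript level therefore does not check these labels. All 9 root tip markers were above 0 in every library, with a summed level of 194 to 323 CPM, and 3 markers of green shoot tissue summed to 1.26 to 22.3 CPM. In whole root tips, fewer cells of a type and less RNA per cell cannot be told apart.

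Sequence before the gene start is shown for 3 of the 6 genes, because UMAMIT35 holds the only searched motif found in the 6 windows, and UMAMIT17 and UMAMIT18 share a longer stretch than any other pair of the 6. Each window is the 250 bases before the annotated start, 5′ to 3′ on the gene's strand, from the RefSeq TAIR10.1 genome. The UMAMIT35 window is chr1:22123882-22124131, minus strand, with the reverse complement of the E-box in capitals. The UMAMIT17 window is chr4:5244615-5244864, plus strand, and the UMAMIT18 window chr1:16917054-16917303, minus strand, both with the shared stretch in capitals.
UMAMIT35: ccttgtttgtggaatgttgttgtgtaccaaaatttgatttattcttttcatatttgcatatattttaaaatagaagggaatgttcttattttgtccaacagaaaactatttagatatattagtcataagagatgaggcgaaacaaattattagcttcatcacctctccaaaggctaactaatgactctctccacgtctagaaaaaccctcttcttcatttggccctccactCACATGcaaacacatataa
UMAMIT17: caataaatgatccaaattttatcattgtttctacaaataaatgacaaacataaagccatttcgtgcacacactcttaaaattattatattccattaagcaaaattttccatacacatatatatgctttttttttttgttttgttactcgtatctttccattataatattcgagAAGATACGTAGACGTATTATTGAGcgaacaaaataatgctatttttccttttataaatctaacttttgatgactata
UMAMIT18: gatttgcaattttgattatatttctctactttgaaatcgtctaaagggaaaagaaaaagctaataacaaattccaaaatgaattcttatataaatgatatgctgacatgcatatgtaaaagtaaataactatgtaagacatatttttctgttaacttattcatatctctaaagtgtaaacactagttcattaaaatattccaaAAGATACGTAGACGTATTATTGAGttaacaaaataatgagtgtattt

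The 24 bases shared by UMAMIT17 and UMAMIT18 read aagatacgtagacgtattattgag in both, on the gene's strand. They begin 77 bases before the start of UMAMIT17 and 47 bases before that of UMAMIT18. Among 27443 promoter windows of this length these 2 hold the stretch, and the genome holds it in 2 places. In the other 14 pairs of the 6 genes the longest shared run, on either strand, was 8 to 11 bases. The motifs searched on both strands were the auxin response element forms TGTCTC and TGTCGG, the BZR1 element forms CGTGCG and CGTGTG, the G-box CACGTG and the E-box CATGTG. A G-box with TG after it also holds CGTGTG, so those searches overlap. The E-box was found in the UMAMIT35 window, on the opposite strand, 19 bases before the start, and 11.1% of all windows hold it. The other motifs were in none of the 6 windows, against 10.9%, 4.16%, 1.57%, 5.37% and 6.49% of all windows in the order given. The window of UMAMIT20, the neighbour of UMAMIT17, holds CGTGTG 59 bases and a G-box 215 bases before its start.

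The 6 genes lie apart in the genome. UMAMIT35 is at chr1:22121375-22123881, UMAMIT28 at chr1:38444-41017, UMAMIT18 at chr1:16913994-16917053, WAT1 at chr1:28337726-28340275 and UMAMIT14 at chr2:16491143-16493343, all on the minus strand. UMAMIT17 is at chr4:5244865-5248394 on the plus strand, 3752 bases after UMAMIT20 (AT4G08290), another family gene on the same strand. UMAMIT28 has 6 annotated exons and each other member 7, and no member overlaps another gene. Of the 36-base stretches in their exons, 3.99% of those in UMAMIT28 occur elsewhere in the genome and 0% in the other 5 genes, so reads of 36 bp cannot all be placed uniquely in UMAMIT28.

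Per length of transcript, WAT1 and UMAMIT18 were the most abundant of the 6 in mock-treated Col-0, at 160 ± 6.76 and 139 ± 0.337 RPKM (CPM per kilobase of annotated exon). UMAMIT17 followed at 25.9 ± 0.352 RPKM and UMAMIT28 at 14.99 ± 0.342. The scarcest were UMAMIT14, at 5.57 ± 0.112 RPKM, and UMAMIT35, at 2.87 ± 0.255. Between them the 6 genes gave 37.9% to 38.0% of the summed CPM of the 52 family loci in mock-treated Col-0 and 51.7% to 53.1% after IAA. This was no joint rise, as 3 of the 6 were higher and 3 lower with IAA. WAT1 went from a mean of 305 to 710 CPM. The other 46 loci summed to 994.5 to 1021 CPM in mock and 750.5 to 782 after IAA.

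**Figure D1:**
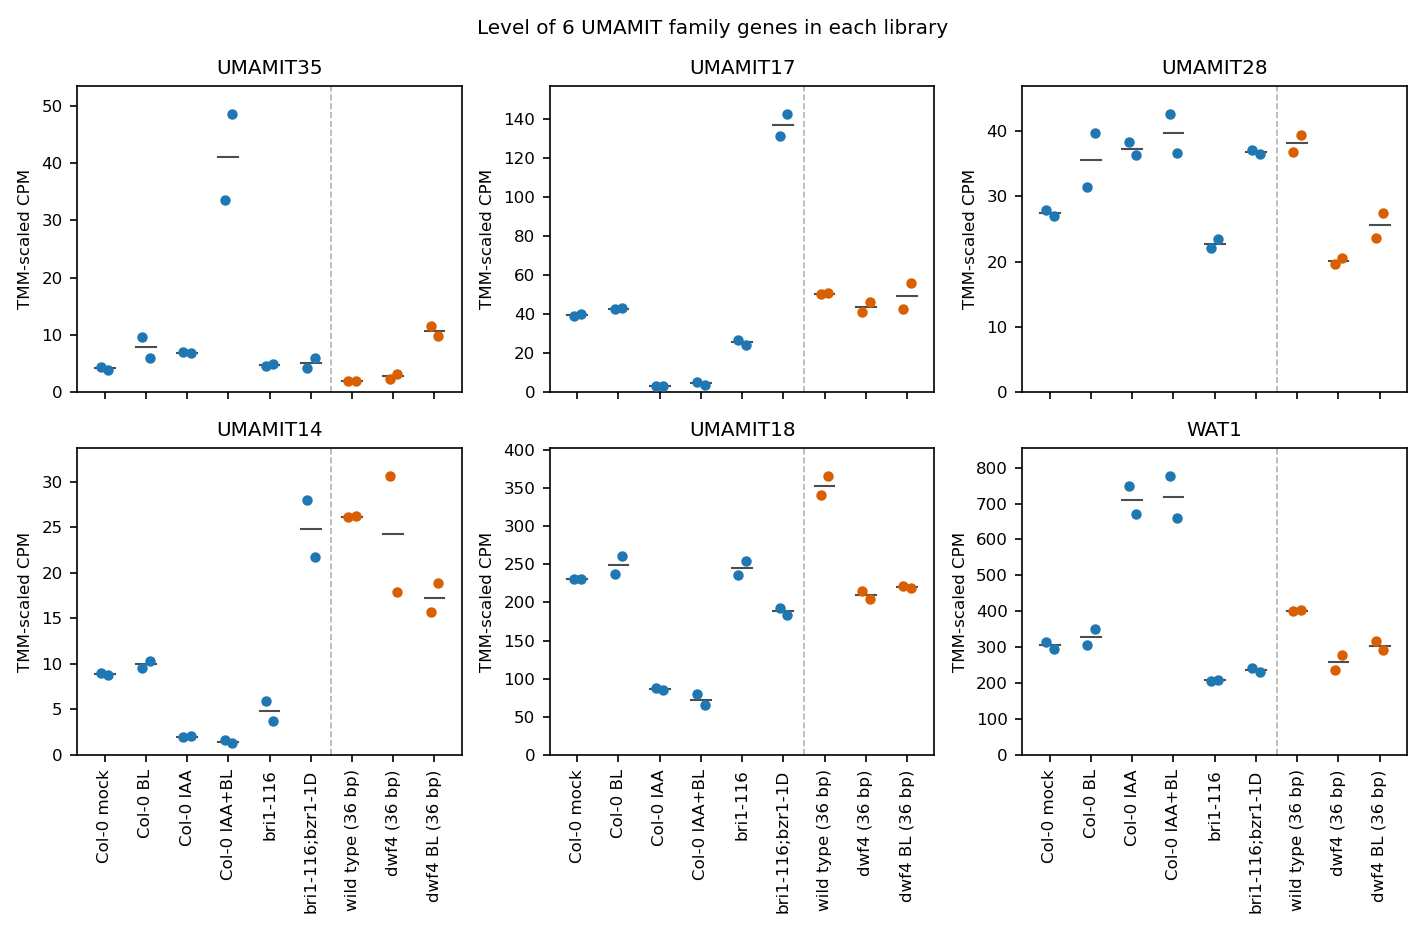
Level of each of the 6 genes in TMM-scaled CPM ( y axis from 0) in every library, by group (x axis), with points for the libraries and a bar for the group mean; blue marks 101 bp libraries and orange 36 bp libraries, which were scaled apart. UMAMIT35 is highest with IAA and BL together, at 33.5 and 48.6 CPM, UMAMIT17 and UMAMIT14 are low in both IAA groups and high in bri1-116;bzr1-1D, and WAT1 is highest in both IAA groups.

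UMAMIT35 was scarce in most groups and stood out where BL and IAA were given together. It measured 4.51 and 3.98 CPM in the mock libraries, 9.68 and 6.07 with BL, 7.03 and 6.80 with IAA, and 33.5 and 48.6 with both. The libraries given both hormones lay far above all other 101 bp libraries, while the BL and IAA groups overlapped each other and both lay above mock. Its log2 fold change was 0.97 (SE 0.231) for BL against mock, 0.72 (SE 0.223) for IAA against mock and 3.26 (SE 0.186) for both against mock. BL on top of IAA gave a log2 fold change of 2.54 (SE 0.174). The interaction, the BL response with IAA minus that without, was 1.57 on the log2 scale (SE 0.294), a further 2.97-fold. The BL libraries lay far apart, and without BL replicate 1 the BL change was 0.54.

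UMAMIT35 was also higher in BL-treated than in untreated dwf4, a comparison that shares no library with the hormone treatments of Col-0. That comparison had no mock control, so BL cannot be told apart from the handling. Mutant results were also known in part when the list was made. UMAMIT35 measured 2.00 and 1.95 CPM in wild type at 36 bp, 2.37 and 3.26 in dwf4, and 11.6 and 9.88 in dwf4 given BL. Both BL-treated libraries lay above the other 4. The log2 fold change was 1.93 for BL-treated against untreated dwf4 (SE 0.195, adjusted p = 0.000551) and 2.44 against wild type (SE 0.202, adjusted p = 0.000192). Untreated dwf4 against wild type gave 0.51 (SE 0.250, adjusted p = 0.233), not past the threshold. The receptor mutant had 4.55 and 5.02 CPM of UMAMIT35 and the double mutant 4.21 and 6.03. Neither mutant passed the test against mock-treated Col-0 (log2 fold changes 0.18, SE 0.234, adjusted p = 0.585, and 0.26, SE 0.278, adjusted p = 0.590).

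Over the 6 groups at 101 bp the order of UMAMIT35 was mock, bri1-116, double mutant, IAA, BL and both hormones. The bri1-116 and double mutant libraries overlapped, as did those of IAA and BL, and the lower double mutant library lay within the range of mock. The mean with both hormones, 41.03 ± 10.7 CPM, was 9.67 times that of mock.

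**Figure D2:**
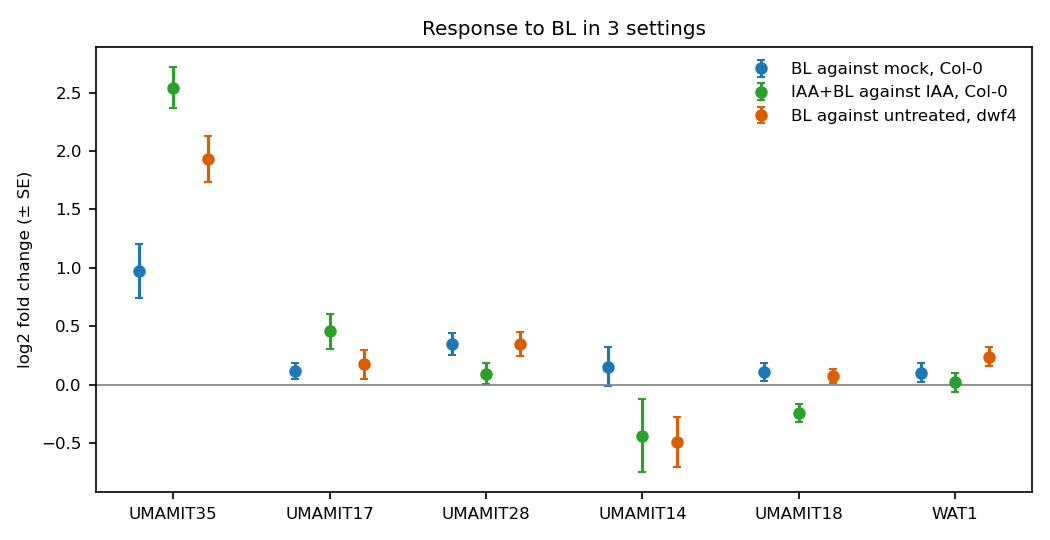
Log2 fold change (y axis, with its SE) of each of the 6 genes (x axis) for BL against mock in Col-0, for IAA+BL against IAA in Col-0, and for BL-treated against untreated dwf4. UMAMIT35 is above 0 in each, at 0.97, 2.54 and 1.93, and no other member exceeds 0.5 in any of them.

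UMAMIT17 had the largest difference of the 6 with IAA, and its highest level was in the double mutant. It measured 39.1 and 39.8 CPM in mock, 42.5 and 43.1 with BL, 3.35 and 3.43 with IAA, and 5.05 and 4.02 with both. No library with IAA came near any without it. The log2 fold change was -3.54 for IAA against mock (SE 0.0977), an 11.7-fold lower level, and -3.09 for both hormones against mock (SE 0.0994). With BL alone it was 0.12 (SE 0.0700), and the interaction was 0.34 (SE 0.163).

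In the receptor mutant UMAMIT17 measured 26.8 and 24.4 CPM, and in the double mutant 131 and 142. All bri1-116 libraries were below mock and all double mutant libraries above it. It fell in bri1-116 (log2 fold change -0.63, SE 0.0697, adjusted p = 2.89e-06) and was higher in the double mutant than in bri1-116 (2.42, SE 0.0681, adjusted p = 1.94e-12) and than in mock (1.79, SE 0.0654, adjusted p = 5.9e-11). Across the 6 groups the double mutant mean was 40.3 times the IAA mean, and no neighbouring groups in the order overlapped. At 36 bp UMAMIT17 measured 50.3 and 50.7 CPM in wild type, 41.2 and 46.4 in dwf4, and 42.6 and 55.9 in BL-treated dwf4, and none of the 3 comparisons passed the test (adjusted p 0.317, 0.396 and 0.880 for dwf4 against wild type, BL-treated against untreated dwf4 and BL-treated dwf4 against wild type).

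UMAMIT14, the amino acid exporter of phloem unloading, was likewise lowest in the IAA groups and, at 101 bp, highest in the double mutant. It measured 9.02 and 8.77 CPM in mock, 9.59 and 10.3 with BL, 1.90 and 2.11 with IAA, and 1.59 and 1.25 with both. The IAA and non-IAA libraries did not overlap. The log2 fold change was -2.17 for IAA (SE 0.206) and -2.61 for both hormones (SE 0.239) against mock, and 0.15 for BL (SE 0.167). Its interaction was -0.59 (SE 0.355).

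UMAMIT14 measured 5.92 and 3.68 CPM in bri1-116 and 28.0 and 21.8 in the double mutant. As for UMAMIT17, the receptor mutant lay below mock and the double mutant above it. It fell in bri1-116 (log2 fold change -0.90, SE 0.172, adjusted p = 0.000620) and was higher in the double mutant than in bri1-116 (2.39, SE 0.166, adjusted p = 1.52e-08) and than in mock (1.49, SE 0.153, adjusted p = 6.18e-06). The dwf4 libraries disagreed, at 30.6 and 17.9 CPM, with wild type at 26.1 and 26.2 between them and BL-treated dwf4 at 15.6 and 18.9. No comparison at 36 bp passed the test for UMAMIT14: the log2 fold change was -0.10 in dwf4 (SE 0.208, adjusted p = 0.793), -0.49 for BL in dwf4 (SE 0.217, adjusted p = 0.178) and -0.60 for BL-treated dwf4 against wild type (SE 0.214, adjusted p = 0.0893). The dwf4 value was -0.55 without dwf4 replicate 1, past the threshold, and 0.23 without dwf4 replicate 2. The BL value in dwf4 was -0.82 without dwf4 replicate 2, past the threshold (adjusted p = 0.00162), and -0.046 without dwf4 replicate 1. BL-treated dwf4 against wild type passed with no filter on low counts (adjusted p = 0.0218), with all 18 libraries in 1 fit (0.0341) and with only the libraries compared (0.00296).

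UMAMIT18, an amino acid carrier known from the silique, was lower with IAA and did not follow UMAMIT17 and UMAMIT14 in the mutants. It measured 230.4 and 231 CPM in mock, 237 and 261 with BL, 87.5 and 84.6 with IAA, and 79.3 and 65.3 with both. Every IAA library lay under every library without IAA. The log2 fold change was -1.42 for IAA (SE 0.0763) and -1.67 for both hormones (SE 0.0782) against mock, and 0.11 for BL (SE 0.0737). BL on top of IAA gave -0.25 (SE 0.0794), and the interaction was -0.35 (SE 0.108).

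In bri1-116 UMAMIT18 measured 237 and 254 CPM, close to mock (log2 fold change 0.09, SE 0.0729, adjusted p = 0.370), and in the double mutant 193 and 184. It was lower in the double mutant than in bri1-116 (-0.38, SE 0.0749, adjusted p = 0.000698) and than in mock (-0.29, SE 0.0749, adjusted p = 0.0138, or 0.120 without double mutant replicate 2). UMAMIT18 and UMAMIT17, whose windows share the stretch shown above, differed from bri1-116 in opposite directions there. In dwf4 it measured 216 and 205 CPM against 341 and 366 in wild type, and with BL 222 and 219.5. The fall in dwf4 was -0.75 on the log2 scale (SE 0.0586, adjusted p = 0.000249), BL-treated dwf4 was still lower than wild type (-0.68, SE 0.0584, adjusted p = 0.000228), and BL in dwf4 did not pass the test (0.07, SE 0.0588, adjusted p = 0.472).

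UMAMIT28 varied least of the 6, with a ratio of 1.74 between the highest and lowest group mean at 101 bp. It measured 27.9 and 27.0 CPM in mock, 31.5 and 39.7 with BL, 38.4 and 36.3 with IAA, and 42.6 and 36.7 with both. The BL, IAA and combined groups overlapped one another and lay above mock. The log2 fold change against mock was 0.35 for BL (SE 0.0945), 0.45 for IAA (SE 0.0893) and 0.54 for both (SE 0.0915). Its interaction was -0.26 (SE 0.130).

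In bri1-116 UMAMIT28 measured 22.0 and 23.5 CPM and in the double mutant 37.1 and 36.5. The fall in bri1-116 was small (log2 fold change -0.27, SE 0.0929, adjusted p = 0.0337), and it was past the threshold in none of the 4 fits that left out a library and not in DESeq2 (adjusted p = 0.0905). UMAMIT28 was higher in the double mutant than in bri1-116 (0.69, SE 0.0992, adjusted p = 3.81e-05) and than in mock (0.42, SE 0.0975, adjusted p = 0.00679, or 0.0680 without double mutant replicate 1). In dwf4 it measured 19.6 and 20.6 CPM against 36.9 and 39.4 in wild type, and with BL 23.6 and 27.5. UMAMIT28 fell in dwf4 (-0.92, SE 0.0970, adjusted p = 0.000885), and BL-treated dwf4 was lower than wild type (-0.58, SE 0.0939, adjusted p = 0.00464, or 0.0628 without wild type replicate 2). The BL change in dwf4 was 0.35 (SE 0.100, adjusted p = 0.0548), and it passed the test with no filter on low counts (adjusted p = 0.0384), with all 18 libraries in 1 fit (0.0436) and without BL-treated dwf4 replicate 1 (0.0467).

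WAT1, the vacuolar auxin exporter, was the member with the clearest rise after auxin. It measured 314 and 296 CPM in mock, 305 and 351 with BL, 749 and 670.4 with IAA, and 776 and 661 with both. The IAA libraries, with or without BL, overlapped each other and lay far above the mock and BL libraries, which also overlapped. The log2 fold change against mock was 1.22 for IAA (SE 0.0800), 1.24 for both (SE 0.0802) and 0.10 for BL (SE 0.0801). BL on top of IAA gave 0.02 (SE 0.0786), and the interaction was -0.08 (SE 0.112).

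WAT1 was lower in each brassinosteroid mutant. It measured 206 and 208 CPM in bri1-116 and 240.3 and 230.0 in the double mutant, below both mock libraries. It fell in bri1-116 (log2 fold change -0.56, SE 0.0801, adjusted p = 4.08e-05) and was lower than mock in the double mutant (-0.38, SE 0.0813, adjusted p = 0.00455, or 0.0562 without double mutant replicate 2). The double mutant did not pass the test against bri1-116 (0.18, SE 0.0816, adjusted p = 0.0875), but did with no filter on low counts (adjusted p = 0.0159) and with only the libraries compared (0.00862). In dwf4 WAT1 measured 237 and 279 CPM against 401 and 403 in wild type, and with BL 317 and 291. It fell in dwf4 (-0.64, SE 0.0809, adjusted p = 0.00201), and BL-treated dwf4 was lower than wild type (-0.40, SE 0.0804, adjusted p = 0.0106). The BL change in dwf4 did not pass the test (0.24, SE 0.0809, adjusted p = 0.0929). It ran from 0.13 to 0.36 with a library left out and passed without dwf4 replicate 2 (adjusted p = 0.00870) and with no filter on low counts (0.0445). The call of BL-treated dwf4 against wild type was lost without wild type replicate 1, wild type replicate 2 or BL-treated dwf4 replicate 2 (adjusted p 0.0892, 0.0888 and 0.0637).

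Set side by side, 3 of the 6 genes (UMAMIT17, UMAMIT14 and UMAMIT18) had lower levels with IAA and 3 (WAT1, UMAMIT28 and UMAMIT35) higher ones. All 6 were past the threshold for IAA against mock, beside 59.3% of the 20644 genes tested (29.9% higher and 29.3% lower), and nothing is read from that count or the next ones, because the list was chosen with these comparisons known. UMAMIT35 lost its IAA call without mock replicate 2 (0.62 on the log2 scale) or IAA replicate 1 (0.69). With BL, UMAMIT35 and UMAMIT28 were called higher and none lower, beside 13.0% of all genes (6.37% higher and 6.59% lower). The BL call of UMAMIT35 was lost without mock replicate 2 (0.88) or BL replicate 1 (0.54). That of UMAMIT28 was lost without mock replicate 1 (0.37), mock replicate 2 (0.33) or BL replicate 2 (0.20). It was also lost with no library of these groups left out, in the fit of only the libraries compared (0.35).

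With both hormones, 3 of 6 were higher and 3 lower than in mock, beside 52.0% of all genes (26.0% higher and 26.1% lower), and 2 were higher and 3 lower than with BL alone, beside 56.2% (28.5% higher and 27.8% lower). BL on top of IAA had 1 of 6 higher, UMAMIT35, and none lower, beside 10.5% of all genes (5.40% higher and 5.13% lower). For the interaction 1 of 6 was called, again UMAMIT35, with a positive sign, beside 1.44% of all genes (0.606% positive and 0.838% negative). UMAMIT35 lost that call without mock replicate 1 (1.49 on the log2 scale) and without IAA replicate 1 (1.61). With no filter on low counts UMAMIT18 was also called, lower for the interaction (-0.36) and for BL on top of IAA (-0.25). UMAMIT17 was then called higher for BL on top of IAA (0.45), and also with library totals (0.50). The UMAMIT18 values without IAA+BL replicate 1 were -0.49 and -0.39. Nothing is read from these calls either.

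In the mutants, 4 of the 6 genes fell and none rose in bri1-116, beside 36.1% of all genes called (16.7% higher and 19.4% lower). Those 4 were UMAMIT17, UMAMIT14, UMAMIT28 and WAT1. In the double mutant against bri1-116, 3 of 6 were higher (UMAMIT17, UMAMIT14 and UMAMIT28) and 1 lower (UMAMIT18), beside 40.3% of all genes (21.2% higher and 19.1% lower). Against mock the double mutant had 3 higher and 2 lower, beside 16.2% of all genes (8.03% higher and 8.17% lower), and these comparisons share libraries with those of bri1-116. Nothing is read from these counts of the 6, because mutant results were known in part when the list was made.

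In dwf4, 3 of 6 fell (UMAMIT28, UMAMIT18 and WAT1) and none rose, beside 12.7% of the 19558 genes tested (4.79% higher and 7.93% lower). In BL-treated against untreated dwf4, 1 of 6 was higher, UMAMIT35, and none lower, beside 13.3% of all genes (7.86% higher and 5.45% lower). BL-treated dwf4 differed from wild type in 4 of 6, with UMAMIT35 higher and UMAMIT28, UMAMIT18 and WAT1 lower, beside 18.8% of all genes (9.63% higher and 9.16% lower). The calls of UMAMIT28 and WAT1 there were lost with a library left out, as given above. Nothing is read from these counts of the 6 either, for the same reason.

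The wider family, counted with and without the 6 chosen genes, is set beside these patterns. Of its 52 loci, 41 passed the filter on low counts at 101 bp and 39 at 36 bp, and 2 had no count in any library. The 41 are those abundant enough in at least some groups, not the whole family. They include the 6 chosen genes, and without these 35 were tested at 101 bp and 33 at 36 bp. With IAA, 9 of 41 were higher and 21 lower than in mock, 30 in all, against 59.3% of all genes. The median log2 fold change was -0.30 beside 0.0018 over all genes tested. Among the 35 outside the 6 genes, 6 were higher and 18 lower (68.6% called), and the median was again -0.30. Besides the 6 genes, UMAMIT20 fell the most, from 42.4 and 43.3 CPM in mock to 3.68 and 3.25 with IAA (log2 fold change -3.60, SE 0.120, adjusted p = 2.19e-13). The fold change of this neighbour was close to that of UMAMIT17, -3.54. UMAMIT13 (-2.14, SE 0.188, adjusted p = 4.93e-08), UMAMIT29 (-2.07, SE 0.121, adjusted p = 3.11e-10) and UMAMIT10 (-1.72, SE 0.186, adjusted p = 5.8e-07) also fell.

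The largest rises with IAA outside the 6 genes were in scarce transcripts. UMAMIT15 went from 0.211 and 0.102 CPM in mock, which is 5 and 3 counts, to 3.68 and 4.21 with IAA (log2 fold change 4.64, SE 0.332). Its mean was 0.244 CPM with BL and 3.09 with both hormones. Among the treated Col-0 groups it passed the filter on low counts only through those with IAA, so its rise is a description. UMAMIT25, which exports amino acids in the seed, rose from a mean of 1.34 to 4.79 CPM (1.84, SE 0.226, adjusted p = 2.48e-06). UMAMIT26 (1.58, SE 0.172, adjusted p = 6.77e-07) and UMAMIT42 (1.38, SE 0.155, adjusted p = 9.5e-07) rose as well. With both hormones 12 of 41 were higher and 13 lower than in mock, 61.0% of the loci against 52.0% of all genes. Compared with BL alone, 9 were higher and 18 lower, 65.9% against 56.2%. Leaving the 6 genes aside, these shares of the family were 54.3% and 62.9%.

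**Figure D3:**
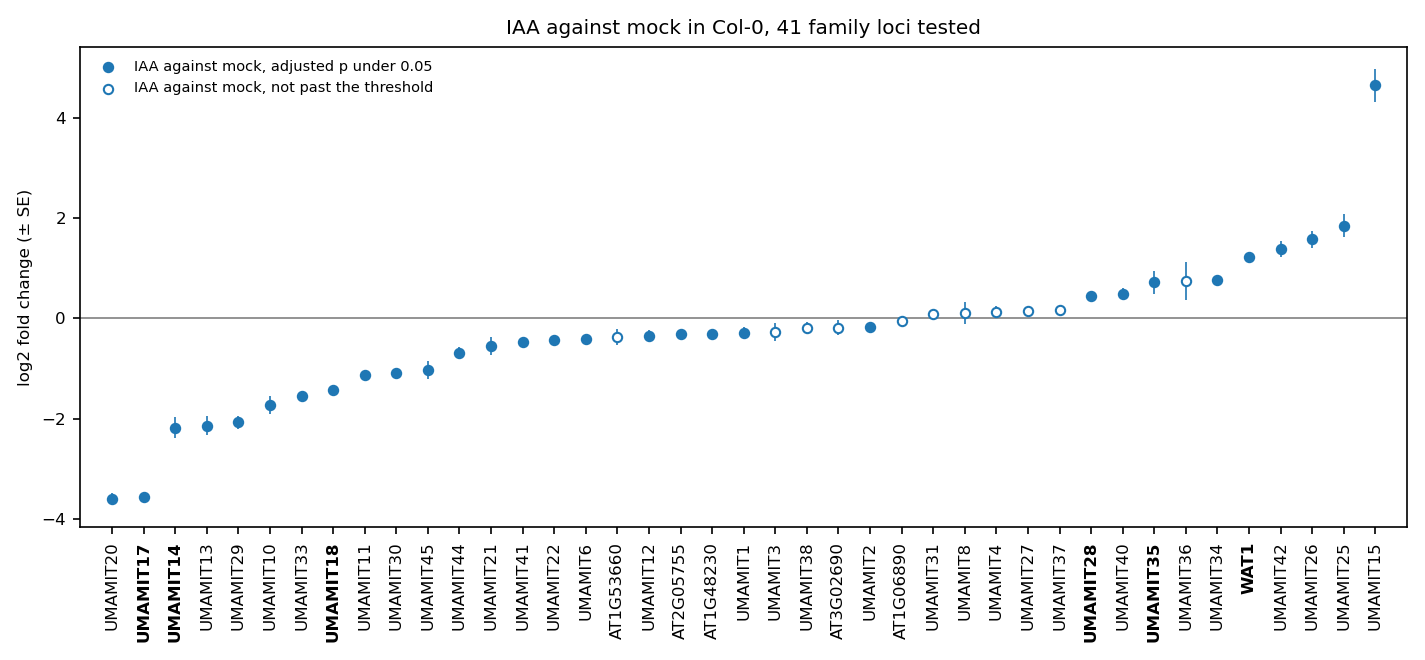
Log2 fold change (y axis, with its SE) of IAA against mock in Col-0 for the 41 family loci tested (x axis, in order of size, the 6 genes in bold); filled points passed an adjusted p of 0.05 and open points did not. UMAMIT20 and UMAMIT17 are lowest, at -3.60 and -3.54, and 21 loci lie below 0 and 9 above it among the filled points.

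BL changed fewer family genes than IAA did by count, as it did over all genes (2675 called against 12236). Against mock it raised 5 of 41 and lowered 2, which is 7 against 13.0% of all genes. BL on top of IAA raised 4 and lowered 2, which is 6 against 10.5% of all genes. Outside the 6 genes, 5 of 35 (14.3%) were called in each of these comparisons, and none for the interaction. Leaving out mock replicate 1 turned the 7 into 4, leaving out mock replicate 2 into 3 and leaving out BL replicate 2 into 4, and the 6 became 3 without IAA replicate 2. UMAMIT35 was the 1 locus of 41 called for the interaction, where leaving out either library with both hormones gave 2 and leaving out mock replicate 1 or IAA replicate 1 gave 0.

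UMAMIT4 (AT3G18200), a family gene outside the 6, rose with BL from 40.5 and 50.1 CPM to 100 and 98.6 (log2 fold change 1.13, SE 0.116, adjusted p = 1.31e-05). In IAA-treated roots BL raised it from 51.5 and 47.3 to 65.7 and 91.2 (0.65, SE 0.117, adjusted p = 0.00167). In dwf4 UMAMIT4 stood at 21.1 and 18.8 CPM, lower than the 39.3 and 40.3 of wild type (-0.99, SE 0.0905, adjusted p = 0.000516). In BL-treated dwf4 it stood at 114 and 103, higher than in untreated dwf4 (2.44, SE 0.0876, adjusted p = 8.41e-06). UMAMIT4 and UMAMIT35 were the 2 family loci called higher in each of these 3 BL comparisons, and the calls of UMAMIT35 are a description only. Of all genes tested at both read lengths, 1.49% were called higher in each. UMAMIT37 fell in the same 3 comparisons, by 0.67, 0.44 and 0.66 on the log2 scale (adjusted p = 0.000708, 0.00861 and 0.0104). It was the 1 family locus called lower in each, beside 1.31% of all genes tested at both read lengths.

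The receptor mutant had lower levels of many family genes. In bri1-116, 5 of 41 were higher and 21 lower than in mock, 26 against 36.1% of all genes, and the median log2 fold change was -0.31 beside 0.01 over all genes tested. DESeq2 called 17 of the 41. UMAMIT26 fell by 2.28 on the log2 scale (SE 0.279, adjusted p = 7.45e-06), UMAMIT29 by 1.24 (SE 0.110, adjusted p = 2.33e-07), UMAMIT4 by 1.18 (SE 0.127, adjusted p = 1.99e-06) and UMAMIT20 by 0.82 (SE 0.0875, adjusted p = 1.69e-06). UMAMIT36, known from resistance to Phytophthora, rose by 2.63 (SE 0.290, adjusted p = 2.57e-06), from a mean of 0.482 to 3.05 CPM. Without bri1-116 replicate 2 the count was 17.

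The double mutant was higher than bri1-116 in 20 of 41 family loci and lower in 4, with 40.3% of all genes called in either direction and 21.2% called higher. The median log2 fold change was 0.36, beside -0.0030 over all genes tested. Outside the 6 genes, 17 of 35 were higher and 3 lower (57.1% called), and the median was again 0.36. UMAMIT20 rose to 82.3 and 98.8 CPM from 26.1 and 22.3 (1.90, SE 0.0881, adjusted p = 2.16e-10), UMAMIT26 by 2.81 on the log2 scale (SE 0.297, adjusted p = 1.54e-06), UMAMIT13 by 1.35 (SE 0.155, adjusted p = 3.76e-06) and UMAMIT4 by 1.13 (SE 0.139, adjusted p = 7.73e-06). Because both comparisons use the bri1-116 libraries, a low value there counts in both, and each is given for itself. Against mock, 8 of 41 were higher and 3 lower in the double mutant, against 8.03% and 8.17% of all genes. With the 6 genes left out, 5 of 35 were higher and 1 lower, 17.1% called beside 16.2% of all genes. UMAMIT20, at 90.5 CPM against 42.9, was again among the higher (1.07, SE 0.0837, adjusted p = 3.7e-07).

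**Figure D4:**
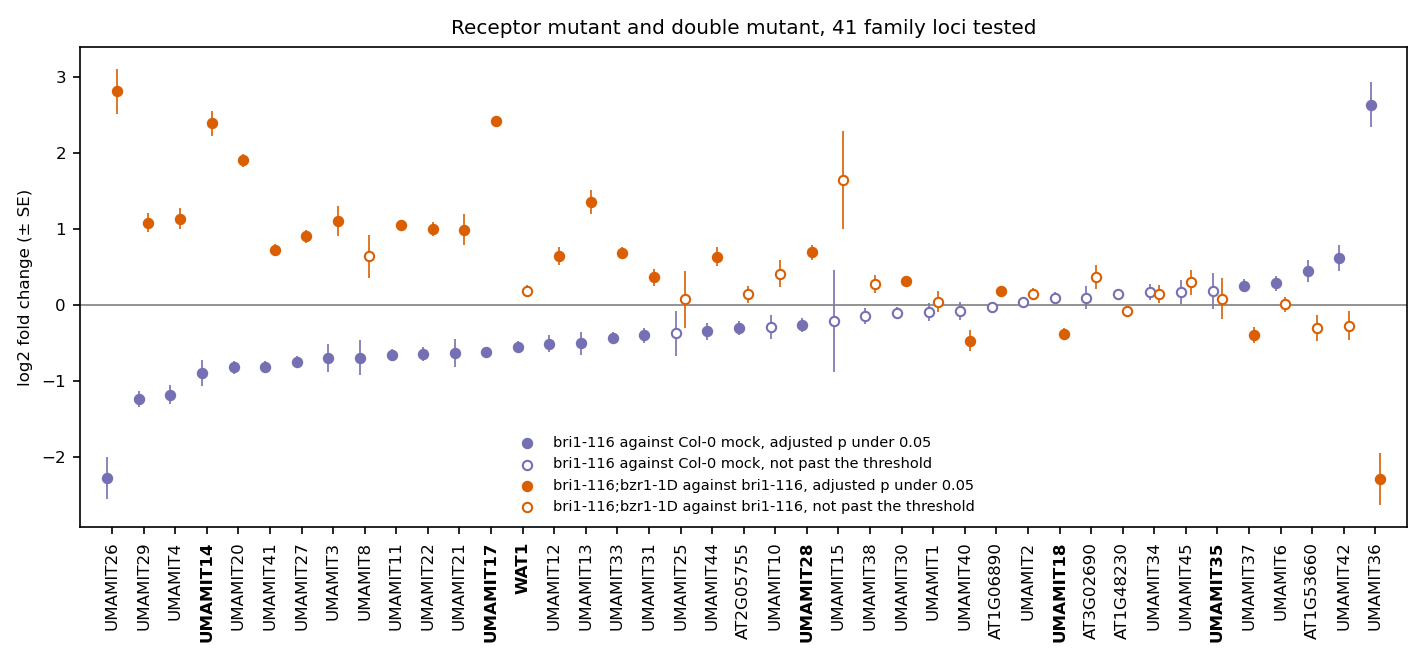
Log2 fold change (y axis, with its SE) of bri1-116 against mock-treated Col-0 (purple) and of bri1-116;bzr1-1D against bri1-116 (orange) for the 41 family loci tested (x axis, ordered by the first, the 6 genes in bold); filled points passed an adjusted p of 0.05. In bri1-116 21 loci are lower and 5 higher, and in the double mutant 20 are higher and 4 lower; both use the bri1-116 libraries.

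In dwf4, 12 of 39 family loci were lower than in wild type and none was higher. Over all genes 7.93% were lower and 4.79% higher, 12.7% in all. Outside the 6 genes, 9 of 33 were lower (27.3%). By DESeq2 10 of 39 were called. UMAMIT26 (-1.43, SE 0.268, adjusted p = 0.0112), UMAMIT29 (-1.37, SE 0.0998, adjusted p = 0.000177), UMAMIT4 (above) and UMAMIT27 (-0.80, SE 0.0884, adjusted p = 0.00111) fell the most outside the 6 genes. Of the 36-base stretches in the exons of UMAMIT26 and UMAMIT27, 16.6% and 13.3% occur elsewhere in the genome, so their counts at 36 bp are uncertain, while no exon stretch of 101 bases of any family locus does. The dwf4 and bri1-116 comparisons share no library. Of the loci lower in bri1-116, 9 of 21 were also lower in dwf4, which is 9 of the 12 lower in dwf4: UMAMIT11, UMAMIT12, UMAMIT26, UMAMIT27, UMAMIT28, UMAMIT29, UMAMIT31, UMAMIT4 and WAT1. Over all genes tested in both, 29.0% of those lower in bri1-116 were also lower in dwf4, which is 73.9% of those lower in dwf4. The number called lower fell to 7 without wild type replicate 1 and to 7 without wild type replicate 2.

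In BL-treated against untreated dwf4, 7 of 39 family loci were higher and 4 lower, with 13.3% of all genes called. Leaving the 6 genes aside, 6 of 33 were higher and 4 lower. With library totals in place of TMM factors the family count of 11 became 9, and 44.4% of the calls were higher in place of 63.6%. DESeq2 called 4 and a fit of only the libraries compared 3, and the count was 3 without dwf4 replicate 1 and 4 without either BL-treated library. Against wild type, BL-treated dwf4 had 3 of 39 higher and 9 lower, against 9.63% and 9.16% of all genes. That is 25.0% of calls higher, or 40.0% of 15 calls with library totals. Outside the 6 genes, 2 of 33 were higher and 6 lower. Without wild type replicate 2 the 12 called loci became 7. UMAMIT29, an amino acid exporter of the seed, stood at 22.5 CPM in BL-treated dwf4 and 61.9 in wild type (-1.46, SE 0.0997, adjusted p = 9.69e-05).

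Markers of xylem and secondary walls, 8 genes none of which was at 0 in any library, moved with the family in the mutants. Their summed level was 553 to 574 CPM in mock, 298 to 300 in bri1-116, 573 in both double mutant libraries, 602 to 638 in wild type at 36 bp and 417 to 431 in dwf4. Of the 8, 7 fell in bri1-116, where 19.4% of all genes were lower, 6 rose in the double mutant against bri1-116, where 21.2% were higher, and 6 fell in dwf4, where 7.93% were lower. With IAA they summed to 471 to 517 CPM, and 6 of 8 fell, against 29.3% of all genes. The 9 root tip markers were PLT1, PLT2, WOX5, SHR, SCR, SMB, GL2, COBL9 and EXPA7. Those called in bri1-116 and in the double mutant against bri1-116 went mostly the other way, with some in each direction. They summed to 279.6 to 295 CPM in mock, 319 to 323 in bri1-116 and 269 to 270 in the double mutant. In bri1-116 4 were higher (PLT2, SHR, SCR and EXPA7) and 1 lower (GL2), with 16.7% of all genes higher and 19.4% lower. Against bri1-116 the double mutant had 2 higher and 5 lower, with 19.1% of all genes lower. In dwf4 2 were higher, with 4.79% of all genes higher, none was lower and 7 were not called. IAA gave 2 higher (WOX5 and SMB) and 5 lower, against 29.9% and 29.3% of all genes. The 5 phloem markers, also above 0 throughout, summed to 107 to 114 CPM in mock, 96.5 to 98.7 in bri1-116, 119 to 130 in the double mutant, 109.7 to 110.5 with IAA, 119.5 to 124.9 in wild type at 36 bp and 83.2 to 87.5 in dwf4. Single phloem markers moved in opposite directions. In bri1-116 the sucrose carrier gene SUC2 fell by 1.18 on the log2 scale while CALS7 (0.75) and NEN4 (0.56) rose, and in the double mutant against bri1-116 SUC2 rose (1.69) while CALS7 fell by 1.00 and NEN4 by 0.92. In dwf4 2 of the 5 fell, SUC2 by 0.90 and SEOR1 by 0.52. The shoot markers summed to 3.03 to 4.01 CPM in mock, 7.21 to 10.3 in bri1-116 and 19.9 to 22.3 in the double mutant, nearly all from RBCS1A, with LHCB1.1 and CAB3 under 1 CPM in each of these group means. The part of these markers in the changes of the family was not tested.

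Other amino acid carriers, the 22 genes of the AAP, LHT, PROT and CAT families, were counted in the same way. Of the 19 tested, IAA raised 5 and lowered 8, against 59.3% of all genes called, and in bri1-116 6 were higher and 7 lower, against 36.1%. In the double mutant against bri1-116, 10 were higher and 6 lower, against 40.3%. AAP2, which moves amino acids between xylem and phloem, fell from a mean of 474 CPM in mock to 175 in bri1-116 (log2 fold change -1.43, SE 0.0935, adjusted p = 9.72e-09) and stood at 459 in the double mutant. AAP3 went the other way, from 15.5 CPM in mock to 47.8 in bri1-116 (1.63, SE 0.144, adjusted p = 2.4e-07). In dwf4, 1 of 17 rose and 1 fell, 11.8% of them against 12.7% of all genes. LHT1, an importer of amino acids at the root surface, rose with BL in IAA-treated roots from 62.8 to 100 CPM (0.66, SE 0.107, adjusted p = 0.000644).

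The genes whose pattern over the 12 libraries at 101 bp was most like that of each member were found by Pearson's r of log2(CPM + 0.5), over 7979 genes with a symbol and a mean of at least 2 CPM. The libraries share groups, so r is given as a description. UMAMIT17 was most like LHCA4 (r = 0.997), a light-harvesting protein, its neighbour UMAMIT20 (r = 0.992) and MCCB (r = 0.991), an enzyme of leucine breakdown. UMAMIT14 was most like BNQ3 (r = 0.978), PI4K GAMMA 7 (r = 0.974) and LHCA4 (r = 0.973). WAT1 was most like ATL3 (r = 0.994), BKI1 (r = 0.992), an inhibitor of the receptor BRI1, and CYP72C1 (r = 0.992), an enzyme that inactivates brassinosteroids. UMAMIT18 was most like BGLU15, ATSBT5.2 (r = 0.991 each) and the cytokinin oxidase gene CKX4 (r = 0.988). UMAMIT28 was most like PP2-A1 (r = 0.964), a phloem lectin, RHF2A (r = 0.955) and NYE1 (r = 0.944). For UMAMIT35 the closest were ELF4-L2 (r = 0.952), TBL18 (r = 0.941) and MKK2 (r = 0.936), the lowest values among the 6. Among the members themselves, UMAMIT17 and UMAMIT14 were most alike (r = 0.970) and UMAMIT18 and WAT1 most opposed (r = -0.898).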

How the data were processed

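The authors deposited, for each of 18 libraries, whole-number read counts per Arabidopsis locus, not normalized. The genome build was TAIR10 and the tools HTSeq, Bowtie and TopHat 1.4.0, per the submitters' processing notes. Strand setting and annotation release: not given in the sources used here. The 5 closing lines that name no gene, 5.87% to 12.0% of each library's total, were left out.

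Libraries of 101 bp (12) and 36 bp (6) were fitted apart with R 4.3.3, limma 3.58.1 and edgeR 4.0.16, using filterByExpr (at least 10 counts, total 15), TMM factors, a coefficient for each group, the quasi-likelihood F test, prior count 0.125, and Benjamini-Hochberg adjustment over all genes of a comparison at 0.05. The sets had 20644 and 19558 genes tested and a common biological coefficient of variation of 0.0483 and 0.0723. The script was tested on simulated data. The SE is the absolute log2 fold change divided by the square root of F. CPM are TMM-scaled, and RPKM divides them by annotated exon length.

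Family loci were those named UMAMIT or WAT1, or described as UMAMIT, WAT1 or nodulin MtN21, in RefSeq TAIR10.1, which matched 32835 of the 33602 loci. PAT2, with WAT1 as an older synonym, was left out. Family genes named beside the 6 were up to 4 called genes each way per comparison with a mean of at least 1 CPM, and up to 2 each way of the carriers. From these a selection is given. BRI1 and DWF4 were added as the mutated genes. Members, lists and tests were chosen with earlier results of these data known. Alternatives were other scalings, no filter, DESeq2 1.42.0, a replicate block, all 18 libraries in 1 fit, only the libraries compared, and each library left out in turn. Counting loci with a UMAMIT name only was added after seeing the data.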

Additional observations from a re-analysis of the deposited data

Results flagged for a closer look

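The response of UMAMIT35 to BL differed between roots with and without IAA, by 1.57 on the log2 scale (SE 0.294). It is listed because the difference itself was past the threshold in edgeR's quasi-likelihood fit of all genes. The gene was put on the list with this comparison known, so that call is no test of it and adds no independent support. The level with both hormones was higher than any other 101 bp library in 2 of 2 libraries. With a library left out the value ran from 1.29 to 2.00, and the call was lost without mock replicate 1 and without IAA replicate 1. Groups of 2 were too small for a check of single outlying libraries.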

How the results depend on the processing

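The count of family loci called was kept within 1.5 times in 128 of 148 recalculations, and the values for the 6 genes kept direction and side of the threshold in 758 of 816. For BL on top of IAA the count of 6 became 10 with no filter on low counts, and for the interaction 1 became 5 with no filter. In bri1-116 the count of 26 became 17 with DESeq2, and for BL in dwf4 11 became 4 with DESeq2 and 3 with only the libraries compared. The cause was not tested. With 1 library left out, counts ran from 3 to 9 for BL, 25 to 29 for IAA, 21 to 25 for both against mock, 3 to 6 for both against IAA, 21 to 26 for both against BL, 0 to 2 for the interaction, 17 to 21 for bri1-116, 21 to 25 for the double mutant against bri1-116, 8 to 9 against mock, 7 to 14 for dwf4, 3 to 14 for BL in dwf4 and 7 to 11 for BL-treated dwf4 against wild type. The counts of 0 for the interaction came without mock replicate 1 and without IAA replicate 1, where edgeR gave 8 and 7 loci at an unadjusted p under 0.05 and DESeq2, on all libraries, called 1. In these fits a group left with 1 library was assumed to vary like the others.

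Direction turned only with a library left out. The range over left-out libraries was -0.0014 to 0.22 for WAT1 with BL. With both against IAA it was -0.017 to 0.18 for UMAMIT28 and -0.092 to 0.13 for WAT1. For UMAMIT28 with both against BL it was -0.00082 (without BL replicate 1) to 0.34 (without BL replicate 2). WAT1 in the interaction ran from -0.20 to 0.017. UMAMIT35 ran from -0.18 to 0.30 in the double mutant against bri1-116 and from -0.0035 to 0.50 against mock. UMAMIT14 in dwf4 ran from -0.55 to 0.23. UMAMIT17 in BL-treated dwf4 ran from -0.037 to 0.36 against dwf4 and from -0.25 to 0.15 against wild type.

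The labels number the libraries of each group 1 and 2, but same-numbered libraries did not deviate together (r of deviations -0.148 to 0.1498 at 101 bp and -0.158 to 0.0227 at 36 bp), so the numbers are not read as pairs. With the replicate block the counts were 6, 28, 24, 6, 27, 1, 26, 25, 10, 11, 8 and 12 in the order above. Counting only loci with a UMAMIT name gave 7, 28, 25, 6, 26, 1, 24, 23, 11, 12, 10 and 11.

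With 2 libraries per group and a floor of 3 counts, changes in scarce family genes such as UMAMIT15 carry large error, and 11 of 52 loci at 101 bp were too low to test.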
